A study of Mus musculus with 8 samples.

Results

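The regions described here were open in undamaged liver, mostly near the lower end of the intervals kept per library, and fell below that limit in every library made after surgery. Bulk ATAC-Seq, an assay that maps open DNA by where the Tn5 transposase can cut it, was applied to hepatocytes of C57BL/6 mice (C57BL/6J in the study's methods) labelled 10 to 12 weeks old and kept on a normal diet. Per the study's methods the mice were male, and the age range given there for surgery is younger than the labelled one. All 8 libraries came from hepatocytes freed by collagenase perfusion. Undamaged liver (0 h) gave 2 of them, and 2 were made at each of 48, 72 and 96 h after partial hepatectomy (PHx), an operation that takes out some of the liver's lobes. The 0 h mice are labelled as undamaged, so surgery without removal of tissue was not part of the comparison. The study's text calls replicates in undamaged liver and at the first time after PHx biological, from separate hepatocyte preparations, and the labels do not tie a library to an animal.

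Each library has its own list of peaks. A list was reduced to distinct intervals on chromosomes 1 to 19 and X, and the 50000 with the highest −log10 p were kept. Kept intervals of the 8 libraries that shared at least 1 bp were merged into 73721 consensus regions. A region was a member if a kept interval covered it in both 0 h lists and in none of the 6 PHx lists. This held for 399 regions, 0.541% of all, which are called lost regions below. The values that chose them are those of the same libraries, so the lower strength of the lost regions after PHx is a description and was not tested. The label was borne out only in part: all 399 lost regions still had a weaker interval in at least 1 full PHx list, so they fell below the 50000 strongest intervals and none was absent throughout.

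As background, open regions away from promoters are often enhancers, held open by transcription factors that bind short DNA motifs. In hepatocytes these include HNF4, HNF1, FOXA, ONECUT and C/EBP proteins and nuclear receptors, which together keep genes of metabolism, detoxification and plasma protein synthesis active. After PHx the remaining hepatocytes divide while they go on serving the animal. The factor CTCF marks another kind of site, used in chromatin looping and open in most cell types. In bulk tissue, fewer cells with an open site and less opening in each cell cannot be told apart.

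The DNA of 13 lost regions is shown because their summits carry the motif matches discussed below. Each window is the 200 bp around the stronger 0 h summit, on the plus strand of GRCm38.p6 (mm10), and is named by the nearest protein-coding gene. Capitals mark matches, on either strand, to HNF4 (TGNACTTTG), FOXA (TGTTTAC), HNF1 (GTTAATNAT), ONECUT (ATTGATT), C/EBP (TTGCNNAA), the D-box (TTATGNAA), LRH-1 (CAAGGTCA, which contains the nuclear receptor half-site AGGTCA) and the E-box CACGTG. A match is a run of letters and not evidence that the factor bound.
Ptprd, chr4:76962759-76962958: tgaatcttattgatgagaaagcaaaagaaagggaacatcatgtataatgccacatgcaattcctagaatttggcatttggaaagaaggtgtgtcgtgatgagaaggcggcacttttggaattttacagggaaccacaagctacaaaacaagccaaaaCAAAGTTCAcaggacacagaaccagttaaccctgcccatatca
Cyp2a12, chr7:27049005-27049204: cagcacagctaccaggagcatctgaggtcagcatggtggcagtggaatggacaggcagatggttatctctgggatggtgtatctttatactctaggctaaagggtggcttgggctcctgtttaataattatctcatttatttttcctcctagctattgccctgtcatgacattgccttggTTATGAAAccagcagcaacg
Lpcat3, chr6:124674700-124674899: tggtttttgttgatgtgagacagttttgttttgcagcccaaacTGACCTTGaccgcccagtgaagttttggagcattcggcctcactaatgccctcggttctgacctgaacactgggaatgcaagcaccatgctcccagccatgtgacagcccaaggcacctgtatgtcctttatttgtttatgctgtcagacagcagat
Trat1, chr16:48767608-48767807: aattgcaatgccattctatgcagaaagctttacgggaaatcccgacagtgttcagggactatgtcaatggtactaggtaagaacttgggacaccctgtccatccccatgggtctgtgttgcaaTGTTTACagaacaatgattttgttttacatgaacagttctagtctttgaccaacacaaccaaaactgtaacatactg
Fam169b, chr7:68282965-68283164: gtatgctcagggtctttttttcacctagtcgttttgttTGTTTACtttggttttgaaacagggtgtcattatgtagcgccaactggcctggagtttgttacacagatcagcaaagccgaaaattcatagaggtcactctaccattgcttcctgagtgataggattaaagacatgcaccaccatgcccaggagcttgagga
Phlpp1, chr1:106200910-106201109: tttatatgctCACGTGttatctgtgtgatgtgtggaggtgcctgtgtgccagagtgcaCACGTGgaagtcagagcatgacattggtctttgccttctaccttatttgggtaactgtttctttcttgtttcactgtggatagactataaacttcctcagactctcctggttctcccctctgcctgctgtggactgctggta
Amy2a5, chr3:112823422-112823621: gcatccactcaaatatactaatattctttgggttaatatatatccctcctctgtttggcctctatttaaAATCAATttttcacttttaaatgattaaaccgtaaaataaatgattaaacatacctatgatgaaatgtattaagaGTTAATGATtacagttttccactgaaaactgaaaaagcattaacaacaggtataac
Pou3f4, chrX:110733534-110733733: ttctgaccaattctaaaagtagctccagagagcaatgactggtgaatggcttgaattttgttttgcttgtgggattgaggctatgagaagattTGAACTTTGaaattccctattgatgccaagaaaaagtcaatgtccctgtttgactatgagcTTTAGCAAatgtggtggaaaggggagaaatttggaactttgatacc
Pts, chr9:50533795-50533994: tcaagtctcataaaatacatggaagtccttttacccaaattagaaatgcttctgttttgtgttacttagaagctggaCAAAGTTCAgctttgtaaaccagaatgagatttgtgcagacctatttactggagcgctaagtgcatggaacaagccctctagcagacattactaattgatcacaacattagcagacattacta
Trim25, chr11:89007716-89007915: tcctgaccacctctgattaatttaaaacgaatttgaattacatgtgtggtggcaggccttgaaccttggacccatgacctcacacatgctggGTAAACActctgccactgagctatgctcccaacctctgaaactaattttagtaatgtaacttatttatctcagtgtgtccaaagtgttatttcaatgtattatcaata
Slmap, chr14:26532850-26533049: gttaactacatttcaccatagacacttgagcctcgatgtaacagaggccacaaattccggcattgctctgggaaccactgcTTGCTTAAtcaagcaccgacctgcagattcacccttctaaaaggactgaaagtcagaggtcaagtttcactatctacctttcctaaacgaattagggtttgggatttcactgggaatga
Nebl, chr2:17767953-17768152: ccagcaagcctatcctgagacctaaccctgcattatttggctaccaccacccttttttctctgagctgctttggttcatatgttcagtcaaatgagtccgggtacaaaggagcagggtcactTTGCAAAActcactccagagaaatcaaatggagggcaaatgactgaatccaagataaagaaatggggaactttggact
Otx2, chr14:48708788-48708987: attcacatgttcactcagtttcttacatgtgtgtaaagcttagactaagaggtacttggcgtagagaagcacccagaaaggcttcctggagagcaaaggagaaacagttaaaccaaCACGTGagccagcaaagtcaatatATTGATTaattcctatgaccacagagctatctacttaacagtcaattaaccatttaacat

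The first 7 of these windows belong to the 10 regions with the largest gap between 0 h and PHx, where the gap is the percentile of the weaker 0 h library minus that of the strongest PHx library. HNF4 matches lie near the summit in the windows of Pou3f4 and Pts, FOXA in those of Trat1 and Trim25, C/EBP in those of Slmap and Nebl, and the E-box in those of Phlpp1 and Otx2. The Phlpp1 window holds the E-box at 2 places, 87 and 39 bp before the summit. Of the other 3 regions with a large gap, the windows of Ugt2b35 and Naaladl2 are wholly annotated repeat (100% of bases soft-masked), and those of Kcnk4 and Naaladl2 hold none of these matches.

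Strength was followed by rank in the full list (1 is the strongest interval) and by the peak caller's fold enrichment over local background. The largest gap was in an intron of Ptprd, which encodes a receptor-type protein tyrosine phosphatase, at chr4:76962602-76963022. Its ranks were 28474 and 24390 at 0 h. After PHx they were 83698 and 80095 (48 h), 69722 and 88490 (72 h) and 77880 and 92042 (96 h). Its fold enrichment was 9.21 and 10.1 at 0 h, and 3.45 and 3.46 at 48 h. At 72 h it was 4.87 and 3.77, and at 96 h 4.45 and 3.27. The 0 h values lay above all 6 PHx values. The 10 regions with the largest gap were picked for it, so such separation in them follows largely from the choice.

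Detoxification genes followed in the order of the gap. The region 43718 bp downstream of the start of Ugt2b35, a UDP-glucuronosyltransferase gene, at chr5:87044443-87044741, had a fold enrichment of 8.54 and 8.87 at 0 h. After PHx it was not listed in 48 h replicate 1 or 96 h replicate 2 and lay between 3.18 and 3.73 in the other 4 libraries. The region 20015 bp downstream of the start of Cyp2a12, a cytochrome P450 gene, at chr7:27048860-27049245, had 11.1 and 13.8 at 0 h. The PHx libraries had 3.91 and 2.98 (48 h), 5.15 and 3.31 (72 h) and 5.09 and 4.91 (96 h). Its lowest 0 h value was thus more than its highest PHx value, and 96 h replicate 2 came closest to returning, at rank 55545. All 4 regions nearest to Cyp2a12 were in both 0 h lists and 0 of them were in all 8 lists.

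Other regions of this group differed in how many PHx lists still held them. In an intron of Trat1, which encodes an adaptor of the T cell receptor, the region chr16:48767532-48767873 had ranks of 40942 and 48507 at 0 h. It was listed after PHx only in 72 h replicate 2 (rank 104127) and 96 h replicate 2 (rank 82844). Of 6 lymphocyte marker genes, 0 had a kept promoter interval in any of the 8 libraries. In an intron of Naaladl2, the region chr3:24563930-24564615 was listed in the second replicate of each PHx time (fold enrichment 4.47, 4.82 and 3.68) and in no first replicate, against 9.96 and 11 at 0 h. In an intron of Lpcat3, which loads polyunsaturated fatty acids into phospholipids, the region chr6:124674600-124674970 had 3.29 and 4.80 at 0 h and between 1.83 and 2.41 in the 5 PHx lists that held it. In an intron of Phlpp1, a phosphatase that acts on AKT, the region chr1:106200468-106201181 had 9.14 and 9.41 at 0 h and between 4.32 and 5.44 in 4 PHx lists. Every listed PHx value of these 4 regions was below both of their 0 h values. The same was true of the last 3 regions of this group, which all 6 PHx lists still held. The intronic region chr19:6932081-6932619 of Kcnk4, a potassium channel gene, had 8.34 and 8.26 at 0 h and between 3.27 and 4.26 after PHx. The intronic region chr7:68282662-68283281 of Fam169b had 4.53 and 4.99 against 2.70 to 3.30. The region chr3:112823304-112823742, 435315 bp from the start of Amy2a5, an amylase gene, had 10.5 and 12.7 against 3.50 to 5.72, and its window holds HNF1 and ONECUT matches.

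**Figure D1:**
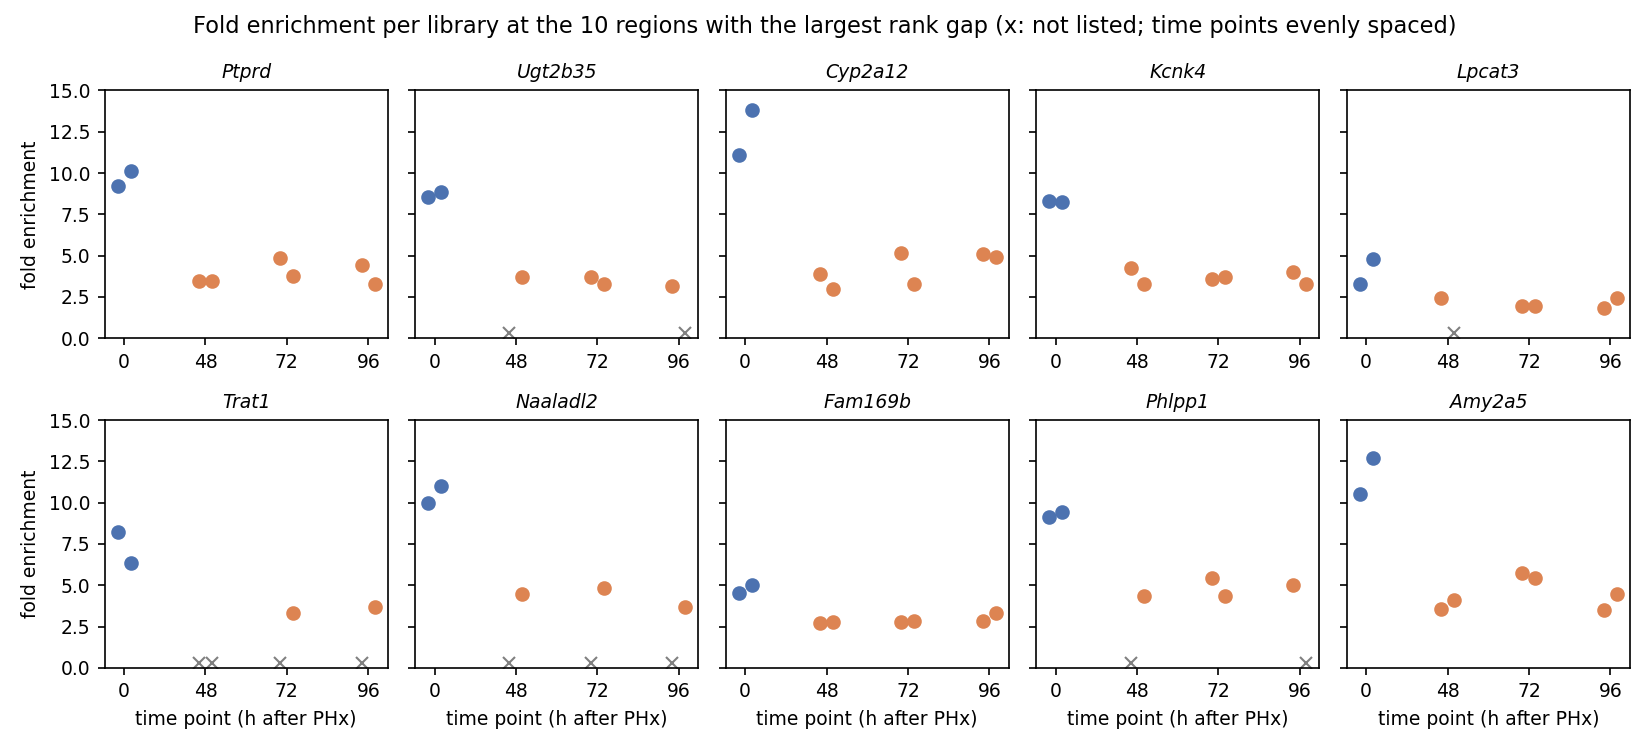
Fold enrichment over local background (vertical axis) at each time point (horizontal axis, evenly spaced) for the 10 lost regions with the largest gap, named by the nearest gene. Each dot is 1 library (blue for 0 h, orange for PHx) and a cross at the bottom marks a library whose full list has no interval there. The blue dots lie above the orange dots in every panel, which follows largely from the choice of regions by gap. The Trat1 region has 4 crosses.

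Across all 399 lost regions the median rank was 43420 and 41112 in the 0 h libraries. With regions that had no interval placed last, it was 78440 and 72919 (48 h), 67631 and 71048 (72 h) and 69538 and 74256 (96 h). The median fold enrichment was 6.53 and 6.28 at 0 h. Among listed regions it was 3.49 and 3.51 (48 h), 4.29 and 3.92 (72 h) and 4.14 and 3.68 (96 h). All 399 lost regions had a lower mean fold enrichment after PHx, which follows largely from the rule, and their median ratio of 0 h to PHx was 1.57. In 359 of the lost regions every listed PHx value was below both 0 h values. This too follows in part from the rule, and it was not counted for other regions.

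The loss was not complete for any region. Of the 399 regions, 201 (50.4%) were listed in all 6 full PHx lists, 116 in 5, 58 in 4, 13 in 3, 7 in 2 and 4 in 1. The 48 h libraries listed 293 and 327 of them, the 72 h libraries 382 and 378, and the 96 h libraries 380 and 315. At 48 h both libraries missed 30 regions, against 4 for 72 h and 9 for 96 h. A region's percentile depends on the length of its list, which was 117924 distinct intervals in 48 h replicate 1 and 154545 in 72 h replicate 2. By the higher replicate percentile, 216 regions stood highest after PHx at 72 h, 113 at 96 h and 70 at 48 h. These counts move with the strength of the lists: at rank 50000 the −log10 p was between 9.95 and 15.2 in 5 libraries but only 8.05, 8.62 and 8.29 in both 48 h libraries and 96 h replicate 2, the same 3 that listed the fewest lost regions. Read depth is not in the lists, and its part in these counts was not tested.

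**Figure D2:**
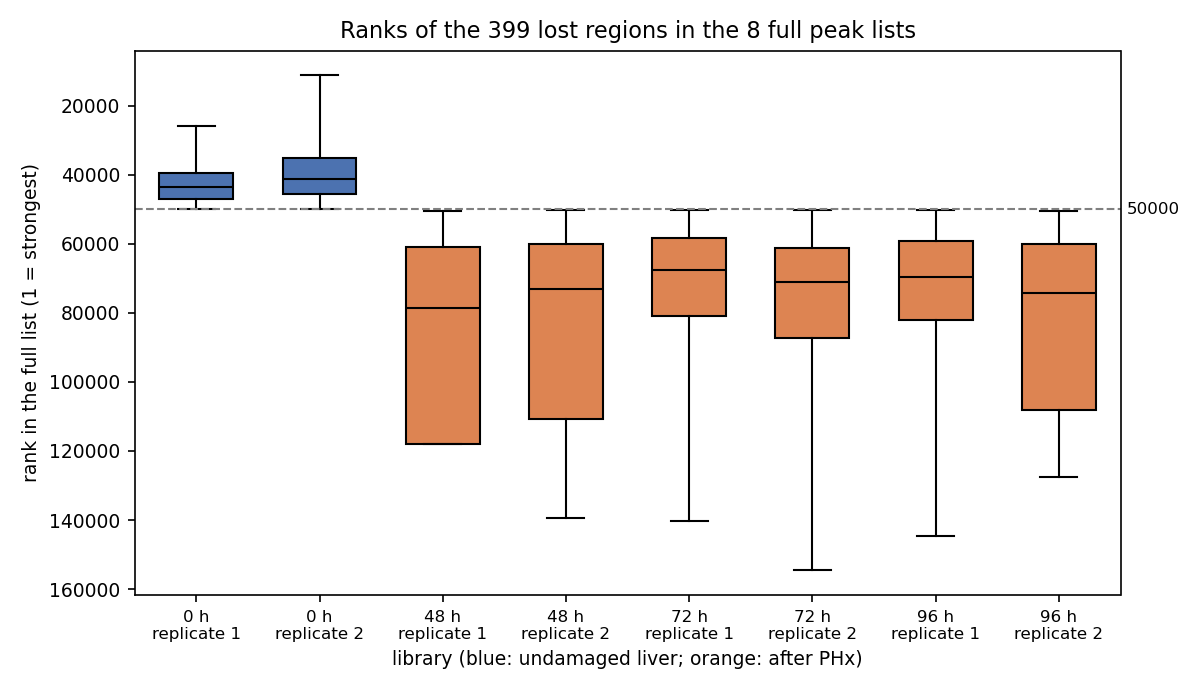
Rank of the 399 lost regions in the full list of each library (vertical axis, reversed so that the strongest interval is at the top), with a region that has no interval placed last. Boxes give the quartiles and median, whiskers the full range, and the dashed line the 50000th rank used by the rule, so the separation at that line is fixed by the rule. The boxes at 48 h and in 96 h replicate 2 reach furthest down, with medians of 78440, 72919 and 74256.

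Most lost regions lay close to the limits of the rule. The weaker of their 0 h ranks ran from 25817 to 49992 with a median of 45794, and 346 of them (86.7%) ranked over 40000. The strongest of their PHx ranks had a median of 54336, and it was under 60000 in 313 regions (78.4%). Just inside the PHx limit, 51 lost regions had their strongest PHx rank between 50001 and 51000, and just outside it 841 regions were in both 0 h lists and in exactly 1 PHx list, 49 of them at ranks 49001 to 50000. Just inside the 0 h limit, 58 lost regions had their weaker 0 h rank between 49001 and 50000. Just outside it, 2775 regions were in a single 0 h list and in no PHx list, and 58 of these ranked between 50001 and 51000 in the other 0 h list. Taking single times, the regions of both 0 h lists that neither library held numbered 2579 for 48 h, 2016 for 72 h and 1780 for 96 h. As shares of all consensus regions these were 3.5%, 2.73% and 2.41%. The 399 lost regions were 15.5%, 19.8% and 22.4% of the regions so counted at each time, and the 3 times share the same 0 h libraries. The rule picked other regions at other list lengths: 283 with 25000 intervals per list, 564 with 75000 and 727 with all intervals, of which 0, 5 and 0 overlapped the 399. Values given below for these list lengths are therefore those of other regions chosen by the same rule. The 399 were all among the regions found when 1 library was left out, which the rule ensures, since fewer lists then have to meet it. Leaving out 0 h replicate 1 raised the count to 2376, leaving out 0 h replicate 2 to 1227 and leaving out 96 h replicate 2 to 632.

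The lost regions were mostly distal, as were the regions of every set they are compared with. A promoter, taken as a region within 1 kb of an annotated transcription start site (TSS), made up 54 of them (13.5%), introns 200 (50.1%) and intergenic DNA 129 (32.3%). Coding exons held 4, untranslated exons 8 and noncoding exons 4. To set them beside regions of more similar strength, the comparison used the 20744 other regions of both 0 h lists whose weaker 0 h rank was over 25000, called weaker shared regions below. Of these 18.7% were promoters, against 33.2% of all 40954 other regions of both 0 h lists and 13.8% of the 260 regions gained at all times (in all 6 PHx lists and neither 0 h list). Of the 8033 other regions with a weaker 0 h rank over 40000, whose median of 44947 is close to the 45794 of the lost regions, 15.8% were promoters. The difference of -5.12 percentage points from weaker shared regions depended on the setting: it was 0.415 with intervals of 200 bp around each summit, -0.984 in the regions lost with 75000 intervals per list, -3.35 without 0 h replicate 1 and -3.03 without 96 h replicate 2. Widths follow in part from the rule, since a lost region merges intervals of the 0 h lists alone and a shared region those of up to 8 lists, and promoters were called from the region's edges. The median width was 450 bp (190 to 1825 bp), against 706 bp for weaker shared regions. The 0 h intervals by themselves differed less, with medians of 383 and 356 bp in the 2 libraries against 477 and 435 bp. The median GC content of the windows was 47.5% against 50%. Annotated repeats made up 13.1% of the bases of the windows against 9.59%.

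Of the promoter regions, 39 lay within 1 kb of a protein-coding TSS. The one with the largest gap was at Krt18, a keratin of the hepatocyte cytoskeleton, 47 bp downstream of the TSS (chr15:102027990-102028439). Its fold enrichment was 3.95 and 5.39 at 0 h. After PHx it was 2.57 and 1.57 (48 h), 2.79 (72 h replicate 1, with replicate 2 not listed) and 2.42 and 3.59 (96 h), so the 0 h values stood above the PHx values. At Map3k12, a kinase gene, the region 141 bp upstream of the TSS (chr15:102510187-102510980) had ranks of 36858 and 31898 at 0 h and between 54205 and 138446 after PHx, and its window holds the E-box CACGTG. At C9, a complement component made by the liver, the region 678 bp upstream (chr15:6444529-6444780) had 4.69 and 5.68 at 0 h and between 2.66 and 3.45 in the 4 PHx lists that held it. The plasma protein gene Mbl2, encoding a mannose-binding lectin, lost its region 59 bp upstream (chr19:30232575-30233177) by a narrow margin: ranks were 41846 and 33678 at 0 h, and 50460 and 51408 at 72 h.

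Further promoter regions were those of Mtmr4, Tmbim6, Slmap, Prg4, Bclaf1 and Rnaset2b. At Prg4, which encodes a secreted proteoglycan, ranks were 40287 and 23938 at 0 h. They were 115354 and 112946 in the 48 h libraries, then 75700 and 63213 (72 h) and 67252 and 59128 (96 h). The ranks at 96 h were nearer to those at 0 h than the ranks at 48 h were, in both replicates. At Slmap, the region chr14:26532814-26533039 was listed in 2 of 6 PHx lists (ranks 74247 and 77809), and at Bclaf1 the region chr10:20311477-20311716 also in 2 (ranks 72108 and 69979).

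Genes of metabolism were nearest to a small share of the lost regions, but a larger share than in the comparison sets. Each region was assigned to the nearest protein-coding TSS, which gave 387 genes for the 399 regions. Of the 399, 301 (75.4%) lay within 50 kb of that TSS, against 73.2% of weaker shared regions. A list of 467 genes taken by symbol prefix (cytochromes P450, UDP-glucuronosyl-, sulfo- and glutathione transferases, aldehyde and alcohol dehydrogenases, acyl-CoA synthetases, apolipoproteins, solute carriers and ABC transporters) held the nearest gene of 24 lost regions (6.02%), against 2.62% of weaker shared regions, 2.38% of all consensus regions and 2.31% of regions gained at all times. The prefix for glucose carriers also takes other solute carriers. The difference of 3.4 percentage points from weaker shared regions was 1.7 in the regions lost with all intervals (4.54% against 2.84%) and 1.78 without 0 h replicate 2. Without Slc23 to Slc29 the list held 387 genes and 20 lost regions (5.01% against 2.19%). Beside Ugt2b35 and Cyp2a12, there were the cytochromes P450 Cyp2c39, Cyp2f2, Cyp3a59 and Cyp4f17 and, by symbol, the aldehyde dehydrogenases Aldh2, Aldh1b1 and Aldh1l1. There were also the conjugating enzymes Gstt1, Sult2a7, Sult3a2 and Sult5a1, the acyl-CoA synthetases Acsl1 and Acsm5, and the apolipoproteins Apoa2, Apoa5 and Apoh. The solute carriers were Slc22a15, Slc22a23, Slc25a13, Slc25a18, Slc26a3 and Slc27a5. At Cyp2c39 the region 85 bp upstream of the TSS (chr19:39510461-39511004) had a fold enrichment of 7.40 and 10.2 at 0 h. It had 3.55 in 48 h replicate 1, 5.72 and 4.82 in the 72 h libraries and 4.77 in 96 h replicate 1, and was not listed in the other two. Gene families such as Cyp2c, Ugt2b and Sult hold near-identical copies, so the placing of reads among them is uncertain.

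Lipid and bile acid genes formed a smaller group. From a list of 45 such genes, 7 were nearest to 9 lost regions (2.26%), against 0.598% of weaker shared regions, 0.469% of all consensus regions and 0 of the 260 regions gained at all times. Bile acid conjugation was represented by Slc27a5, which activates bile acids with coenzyme A, and by Baat, which then joins them to an amino acid. Uptake from HDL was represented by its receptor Scarb1, fatty acid synthesis by Acaca, and lipoprotein lipolysis by Angptl4, a lipase inhibitor. The Angptl4 region had a fold enrichment of 4.83 in 96 h replicate 1, above both 0 h values (4.02 and 4.50). In an intron of Slc27a5 the region chr7:12995872-12996373, with a FOXA match, had a fold enrichment of 4.07 and 5.03 at 0 h. The PHx libraries had 2.01 and 2.80 (48 h), 3.31 and 2.19 (72 h), 2.44 in 96 h replicate 1 and no interval in 96 h replicate 2. The 0 h values did not overlap the PHx values. Slc27a5 is also on the metabolism list. The excess over weaker shared regions, 1.66 percentage points here, was -0.205 in the regions lost with 75000 intervals per list, and fell to 0.491 when 0 h replicate 1 was left out and to 0.741 when 0 h replicate 2 was.

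Fabp1, which encodes the liver fatty acid-binding protein, was nearest to 3 lost regions. It had 10 consensus regions in all, of which 9 were in both 0 h lists and 1, 26827 bp upstream of the TSS, was in all 8. The lost region at the promoter, 139 bp downstream of the TSS (chr6:71199657-71200135), ranked 45777 and 32974 at 0 h. After PHx 48 h replicate 1 did not list it, and it ranked 72566 in 48 h replicate 2, 96564 and 83803 in the 72 h libraries and 62120 and 88587 in the 96 h libraries. The lost region 1999 bp upstream (chr6:71197705-71197983) stayed closer to the limit, at 39512 and 46200 at 0 h and between 51986 and 72756 after PHx. The third, 9182 bp upstream (chr6:71190467-71190802), had ranks of 49085 and 38198 at 0 h, was not listed at 48 h, and stood at 54188 in 96 h replicate 2. The fold enrichment at these regions was low also at 0 h, between 3.13 and 5.47, and in the region 1999 bp upstream the 0 h values (3.83 and 3.27) overlapped the PHx values (2.65 to 3.60). In the region 9182 bp upstream they overlapped too (4.61 and 5.47 at 0 h, 4.82 in 96 h replicate 2). The regions around the lost ones were mostly kept: of the 6 other regions of both 0 h lists, 1 was in 6 PHx lists, 4 in 5 and 1 in 4.

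**Figure D3:**
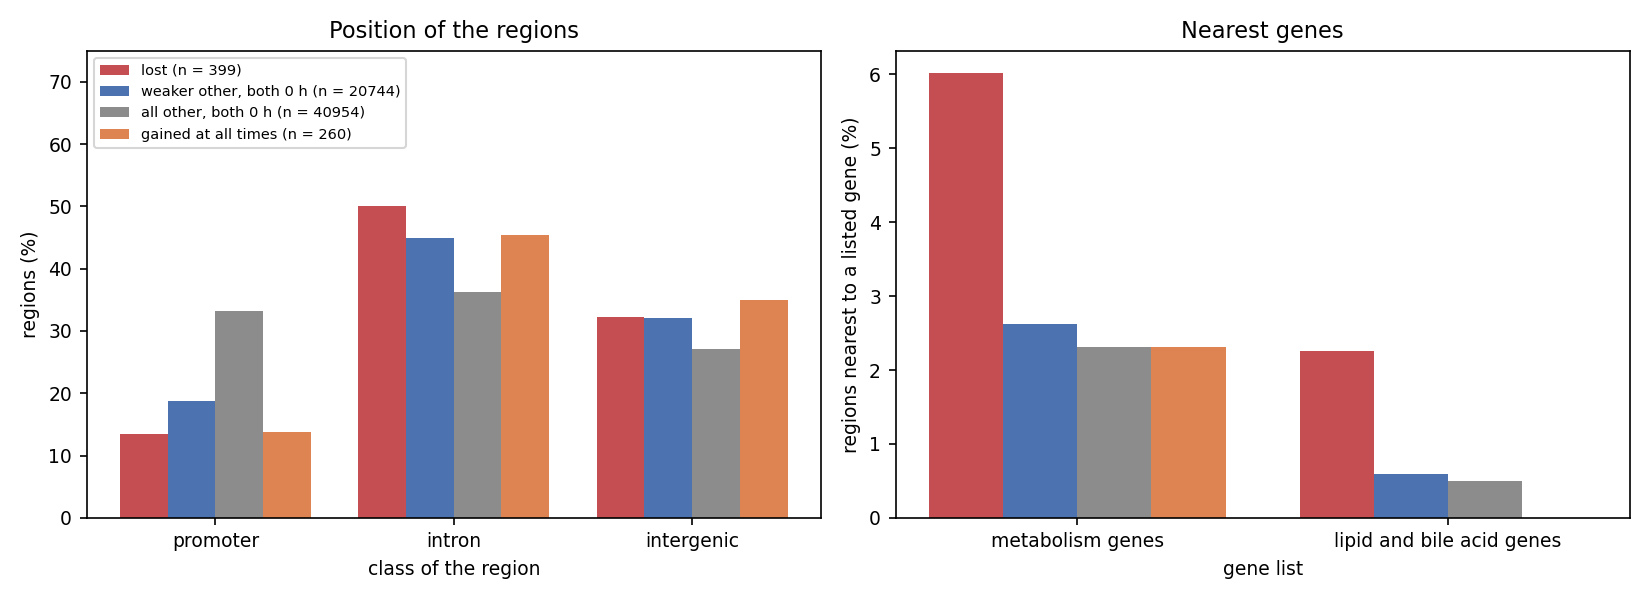
Left, the share of regions (vertical axis, %) that are promoters, intronic or intergenic. Right, the share whose nearest gene is on the metabolism or the lipid and bile acid list. Red is the 399 lost regions, blue the weaker shared regions, gray all other regions of both 0 h lists and orange the regions gained at all times. Red is tallest in both gene lists (6.02% and 2.26%) and, like orange, lowest for promoters (13.5%).

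The other gene lists held few lost regions. Of 32 nuclear receptor genes, Ppara, which drives fatty acid oxidation, and Nr3c2, the mineralocorticoid receptor, were each nearest to 1 (0.501% together, against 0.704% of weaker shared regions). The region near Ppara, 52519 bp upstream of its TSS and within the noncoding gene Lncppara (chr15:85682864-85683188), had a fold enrichment of 6.08 and 5.97 at 0 h and between 2.87 and 4.17 in the 4 PHx lists that held it. Of 20 hepatocyte factors, Klf15 and Nfib were nearest to 1 each (0.501% against 0.607%). Of 30 genes for growth signals of regeneration, Met, the receptor for hepatocyte growth factor, Erbb3, a receptor of the EGF receptor family, and Nfkb1 were nearest to 1 each (0.752% against 0.371%). In an intron of Met, the region chr6:17469051-17469291 ranked 33944 and 36113 at 0 h. Its PHx ranks were 101522 and 53887 (48 h), 76591 and 57176 (72 h) and 62232 and 58760 (96 h). The replicates at 48 h differed here by more than the second of them differed from 0 h.

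Plasma proteins had 2 lost regions (C9 and Mbl2, of 60 genes), 0.501% against 0.439% of weaker shared regions. The growth hormone, insulin and IGF list had 1 (Foxo1, of 18), 0.251% against 0.386%, and genes of pericentral hepatocytes 1 (Znrf3, of 18), 0.251% against 0.164%. A count of 1 or 2 cannot be told from these shares. Developmental regulators had 1 (Bmp5, of 228), 0.251% against 1.61%. Periportal genes, cell cycle genes and circadian clock genes had 0 lost regions, where weaker shared regions had 0.328%, 0.28% and 0.284%, and 399 regions are too few to tell a count of 0 from such shares. Genes nearest to 2 or more lost regions were Fabp1 and Adgrv1 with 3 each, and Fzd8, Saraf, Mpdz, Cped1, Pzp, Vegfa, Mgat4c and Smim18 with 2 each. The 3 of Adgrv1, an adhesion receptor gene, lay in 1 stretch of its introns, 14868, 19609 and 26656 bp downstream of a TSS, and 7 of its 23 regions were in all 8 lists. The 2 of Vegfa, the vascular growth factor, lay 25658 and 91040 bp downstream, and the nearer was lost by a narrow margin, with its strongest PHx rank at 50072 (72 h replicate 1). Its fold enrichment in that library, 5.05, was above both 0 h values (4.41 and 4.69).

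The identity of the cells was read from the promoters of marker genes. Of 12 hepatocyte markers, 10 had a kept promoter interval in each 0 h library and between 4 and 7 in the PHx libraries, and the promoter of 1 of them, the apolipoprotein gene Apoa2, was itself a lost region. Kupffer cell (8 genes) and lymphocyte (6 genes) markers had 0 kept promoter intervals in all 8 libraries. Endothelial markers had 1 to 2 of 10, stellate cell markers 3 of 9 in every library and cholangiocyte markers 1 to 3 of 6. In the full lists, hepatocyte markers had 12 of 12 in both 0 h libraries and 8 to 12 after PHx. Kupffer cell markers had 1 to 2 at 0 h and 0 to 1 after PHx, and lymphocyte markers 0 and 0 to 1. Endothelial markers had 2 and 2 to 6, stellate cell markers 3 to 6 and 4 to 7, and cholangiocyte markers 3 to 5 and 2 to 5. None of the markers of these other cell types was nearest to a lost region. The kept hepatocyte marker counts were thus lower after PHx than at 0 h, but they did not follow the lost regions across PHx libraries. The count was 7 in 48 h replicate 2 and 96 h replicate 2, which listed 327 and 315 lost regions. It was 5 in 72 h replicate 1, which listed 382. The part of the marker promoters in the result was not tested. Apoa2 had ranks of 42850 and 24927 at 0 h and between 53942 and 125723 in 5 PHx lists.

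Sequence was not used by the rule. Matches to 22 motifs were counted in 200 bp around the summit, on both strands. Among the lost regions 175 (43.9%) held at least 1 of the 8 motifs shown in capitals above, against 32.7% of weaker shared regions, 30.1% of all consensus regions and 22.7% of regions gained at all times. At least 2 of them were held by 44 (11%) against 6.47%. Most of these motifs are rich in A and T, so each share was also set beside that of weaker shared regions weighted to the GC content of the lost regions in 5 strata. With this weighting the share with at least 1 was 37.9%. The weighted share with at least 2 was 8.54%, within the 95% interval of the lost regions (8.32 to 14.5%). Without the E-box, whose windows were added after its share was seen, 151 lost regions (37.8%, 95% interval 33.2 to 42.7%) held at least 1 of the other 7, against 30% of weaker shared regions and 35.8% with GC weighting, which lies within the interval. Regions near each other share sequence and libraries, and the 95% Wilson intervals given here cover counting error only.

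The widest difference from weaker shared regions was in CTCF matches. They occurred in 5 lost regions (1.25%, 95% interval 0.536 to 2.9%), against 8.60% of weaker shared regions, 8.44% with GC weighting, 6.92% of all consensus regions and 14.2% of regions gained at all times. The 5 regions were nearest to Slc7a14, Cd24a, Kdm6b, Tap1 and Amtn, and 0 of them were promoters. Against the 8033 regions with ranks over 40000 the share was again 8.60%. The difference of -7.34 percentage points was -4.29 in the regions lost with all intervals. The share rose with the number of PHx lists that held a region of both 0 h lists: among those with a weaker 0 h rank over 25000 it was 1.25% for 0 lists, 2.51% for 1, 4.34% for 2, 4.55% for 3, 6.87% for 4, 7.95% for 5 and 11.4% for all 6. Strength also rose along this order, from a median weaker 0 h rank of 45794 to 33307.

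The E-box CACGTG, which binds USF, MYC and clock proteins among others, went the other way. It was found in 30 lost regions (7.52%, 95% interval 5.32 to 10.5%), against 3.63% of weaker shared regions, 3.03% with GC weighting and 3.46% of regions gained at all times. The share was 5.73% for regions in 1 PHx list and 3.07% for those in all 6. Of the 30 regions, 6 were promoters, 15 intronic and 9 intergenic, and 17 of 32 matches (53.1%) lay within 50 bp of the summit, against 44.6% in weaker shared regions. The nearest genes included the acyl-CoA synthetase Acsl1, the phosphoglucomutase Pgm1, the mitochondrial kinase Ak4, Inmt, a methyltransferase, and Flcn, a regulator of growth signalling at the lysosome, which were chosen from the list after their values were seen. The Wilson interval lay above both comparison shares, but the difference of 3.89 percentage points was smaller in other settings. In the regions lost with all intervals it was 1.11 (34 of 727 regions, 4.68%, interval 3.37 to 6.46%, against 3.57%), and in those lost with 25000 per list 2.1 (interval 3.78 to 9.41% against 3.91%), so both intervals held the comparison share. Leaving out 0 h replicate 1 gave 1.97, leaving out 0 h replicate 2 gave 1.57 and leaving out 96 h replicate 2 gave 2.54.

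FOXA matches were present in 32 lost regions (8.02%, 95% interval 5.74 to 11.1%), against 5.18% of weaker shared regions and 6.13% with GC weighting, which lies within the interval. The difference of 2.84 percentage points was -1.32 in the regions lost with all intervals, 0.495 in those lost with 25000 per list and 1.09 without 0 h replicate 1. Among the genes nearest to them, picked after their values were seen, were Slc27a5, the major urinary protein gene Mup20 and Zbtb20, a transcriptional repressor. HNF4 matches were present in 20 (5.01%) against 4.05%, or 4.77% with GC weighting, and in 0.769% of regions gained at all times. Their 20 nearest genes included Ptprd, Pou3f4 and Pts, whose windows are shown above, and, picked after their values were seen, Scarb1, Hsd3b5, a steroid dehydrogenase, Dbi, an acyl-CoA-binding protein, and Acat3. The HNF4 difference of 0.963 percentage points was -0.421 in the regions lost with all intervals, 6.18 in those lost with 25000 per list and 0.179 without 48 h replicate 2. C/EBP matches were present in 66 (16.5%) against 14.4%, and the GC-weighted share was 17.0%, so the direction turned. It also turned without 0 h replicate 2 (-0.263 percentage points). The GC-weighted shares of HNF1 (2.93% against 3.01% in lost regions), ONECUT (7.21% against 7.27%) and the D-box (4.82% against 5.01%), which shares matches with C/EBP, were close to those of the lost regions. LRH-1 was at 2.76% against 1.76%, or 1.81% with GC weighting, both within its interval. The nuclear receptor half-site was at 25.3% (95% interval 21.3 to 29.8%) against 21.1%, or 21.7% with GC weighting, and AGATAA, the motif of GATA factors, at 12.3% (9.42 to 15.9%) against 8.58%, or 10.3% with GC weighting. For these motifs the unweighted share lay below the interval and the weighted share within it.

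**Figure D4:**
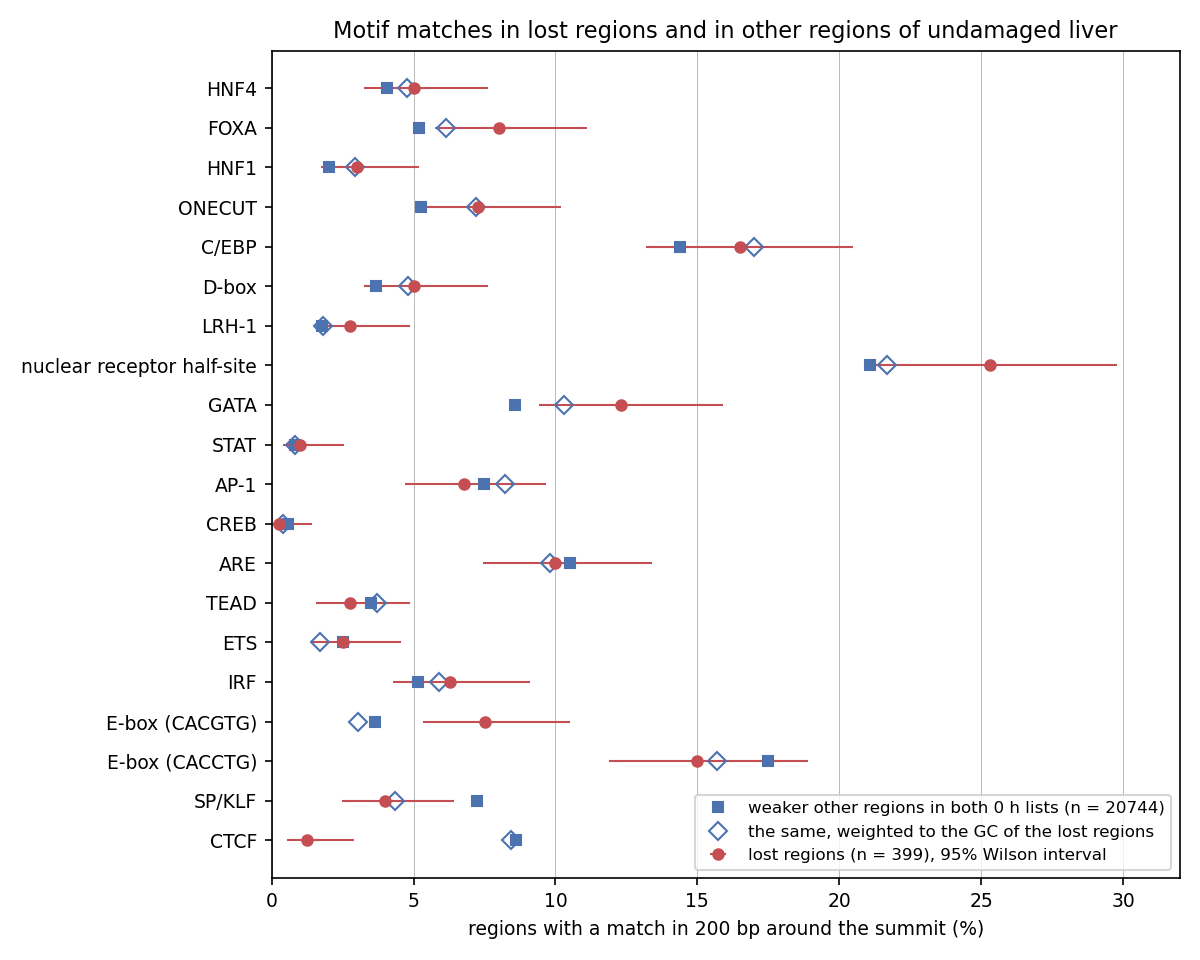
Share of regions with at least 1 match in the 200 bp window (horizontal axis, %) for 20 motifs (vertical axis). Red dots are the 399 lost regions with 95% Wilson intervals, blue squares the weaker shared regions and open diamonds the same regions weighted to the GC content of the lost regions. The red interval leaves both blue symbols only for the E-box CACGTG (7.52% against 3.63% and 3.03%) and CTCF (1.25% against 8.60% and 8.44%).

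The comparison shares of motifs of induced factors lay within the intervals of the lost regions. AP-1 (TGANTCA) was found in 27 lost regions (6.77%) against 7.48% of weaker shared regions, TEAD (CATTCCA) in 11 (2.76%) against 3.50%, STAT (TTCCNGGAA) in 4 (1.0%) against 0.82% and CREB (TGACGTCA) in 1 (0.251%) against 0.564%. The antioxidant response element (ARE, TGACNNNGC) was at 10.0% against 10.5%, IRF (GAAANNGAA) at 6.27% against 5.16%, ETS (CCGGAAG) at 2.51% in both, and the E-box CACCTG at 15% against 17.5%. SP/KLF (CCCGCCC) was at 4.01% against 7.25%, which lay above its interval, but 4.33% with GC weighting, which lay within it. The full-length glucocorticoid receptor and NFI motifs had 0 matches in the 399 lost regions, which allows a share of up to 0.954% (upper bound of the Wilson interval), and 0.217% and 0.318% in weaker shared regions.

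**Figure D5:**
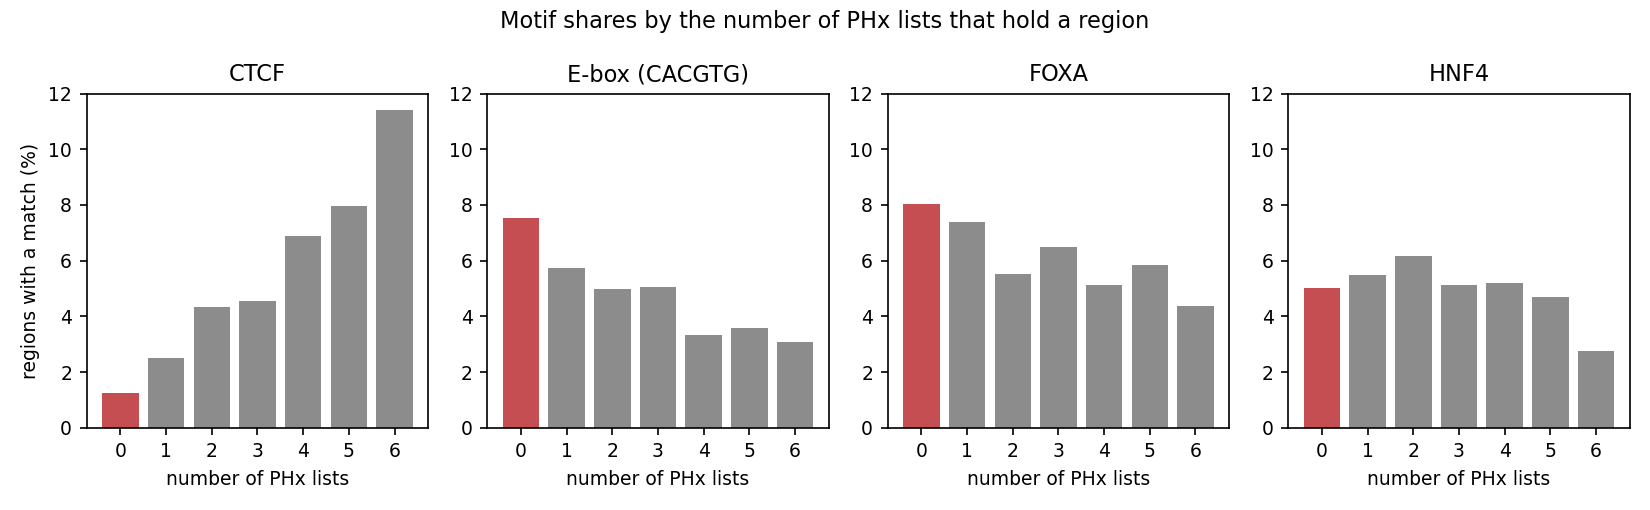
Share of regions with a match (vertical axis, %) by the number of the 6 PHx lists that hold the region (horizontal axis), for regions of both 0 h lists with a weaker 0 h rank over 25000. The red bar at 0 is the 399 lost regions. The CTCF share goes from 1.25% at 0 to 11.4% at 6, the E-box share from 7.52% to 3.07% and the FOXA share from 8.02% to 4.36%. The HNF4 share is not highest in the lost regions: it lies between 4.70% and 6.16% from 0 to 5 lists (5.01% at 0) and is 2.75% at 6.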

How the data were processed

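Per the study's methods, the authors ran the ENCODE ATAC-Seq pipeline, which trimmed reads, mapped them to mm10 with Bowtie2, removed PCR duplicates and called peaks by MACS2. Each library had its own peak calls, and tool versions are not given in the sources used here. The deposited lists hold MACS2's own values: a display score (not used), a fold enrichment ratio, a −log10 p and a −log10 q. The authors' −log10 p ranked the intervals. The lists hold no read counts, so depth is unknown, and they had 141271 to 213226 lines (105185 to 154545 distinct intervals). A list name of 72 h replicate 2 lacks the flow cell code that the other 7 share, and that library was also left out in turn.

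Lines sharing an interval were collapsed to the highest −log10 p. Sequence came from GRCm38.p6 (RefSeq) and annotation from GENCODE M21 basic (75451 TSS, 41135 of them protein-coding), and 0 deposited intervals ended past a chromosome end. Members and gene lists were chosen with earlier results of these data known. Named regions were the 10 with the largest gap, up to 10 coding promoters, members nearest to listed genes and genes nearest to 2 or more members. The windows for the E-box were added after its share was seen. The gap uses percentiles of lists of unequal length, so ranks are given beside it. No test was run. Python 3.11.15, numpy 2.4.6, pandas 2.3.3, pysam 0.24.0 and matplotlib 3.10.9 were used. The steps were tested on simulated lists with planted losses. One gene on the lists is not reported here by name.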

Additional observations from a re-analysis of the deposited data

How the results depend on the processing

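No paired analysis was possible because every result is a description that comes from no test. Values below are the share of lost regions minus that of weaker shared regions, in percentage points, unless a count is named. A share was taken as unmoved within the 95% Wilson interval of the lost regions, a count within 1.5 times, and the rank ratio within 1 SD between libraries. By this, 150 of 178 recomputed values kept their direction and stayed, 20 moved and 8 reversed, and the cause of these shifts was not tested. The q filter changed none of its 9 values, as its outcome equals the main setting, and without it 141 of 169 stayed. Each setting without 1 library held all 399 lost regions, as the rule ensures, so its values are not independent of the main ones.

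With all intervals the rule gave 727 regions, none of them among the 399, since 0 of the 399 lacked an interval in every full PHx list. With 25000 and 75000 intervals it gave 283 and 564 regions, of which 0 and 5 overlapped the 399, so values for these list lengths are those of other regions. Leaving out 1 library gave 497 to 2376: 2376 without 0 h replicate 1, 1227 without 0 h replicate 2 and 632 without 96 h replicate 2, as fewer libraries have to meet the rule. Without both 48 h libraries and 96 h replicate 2, chosen after seeing the data, it was 1285. The median ratio of PHx to 0 h rank was 1.92 (1.84 to 1.98 without 1 library) and 1.72 with unlisted regions left out. By fold enrichment the ratio of 0 h to PHx was 1.57.

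The promoter difference of -5.12 was -9.45 with 25000 intervals, -0.984 with 75000 and 0.415 with 200 bp around each summit, so its direction depends on that choice. CTCF stayed lower in all settings (main -7.34): -4.29 with all intervals, -5.26 with at least 50% coverage, -8.22 in non-promoter regions and -7.65 to -6.01 without 1 library. The E-box CACGTG stayed higher (main 3.89): 1.11 with all intervals and 1.57 to 4.88 without 1 library (1.57 without 0 h replicate 2). FOXA (main 2.84) was 0.495 with 25000 intervals and -1.32 with all intervals. HNF4 (main 0.963) was -0.421 with all intervals. C/EBP (main 2.16) was -0.209 with 25000 intervals, -2.71 with all intervals, -0.412 with GC weighting and -0.263 to 4.38 without 1 library (-0.263 without 0 h replicate 2). The metabolism list stayed higher (main 3.4, 1.78 to 3.31 without 1 library). The lipid and bile acid list (main 1.66) was 0.206 with 25000 intervals, -0.205 with 75000, 0.338 with all intervals and 0.491 to 1.56 without 1 library (0.491 without 0 h replicate 1).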
